A study of Homo sapiens with 18 samples.

Results

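The comparison set 3 untreated U2OS libraries with integrated mCherry-EWS(YS37)-FLI1 against 3 with mCherry-EWS-FLI1mut, chosen by their titles, 6 of the 18 libraries of the series. U2OS is a human osteosarcoma cell line, and all groups carried an mCherry tag or mCherry fusion. PolyA RNA was sequenced with 3 libraries per group, which the labels call biological replicates. The other 12 libraries came from cells with unaltered mCherry-EWS-FLI1, untreated or given the CDK4/6 inhibitor LY2835219, and from cells with mCherry alone. Untreated EWS-FLI1 and mCherry libraries are used below to place the levels. The labels name 1 line per construct and do not say whether it is a clone or a pool, so an effect of the construct and a difference between lines cannot be told apart. They do not say what was changed in EWS-FLI1mut, which by its name carries its change in the FLI1 portion.

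EWS-FLI1 joins the N-terminal low-complexity domain of EWSR1, an RNA-binding protein, to the DNA-binding ETS domain of the transcription factor FLI1, and drives Ewing sarcoma. The EWS portion is rich in tyrosines and lets fusion molecules gather and recruit transcriptional machinery, while the ETS domain binds GGAA motifs and GGAA repeats. YS37 is the name of a version of the EWS portion in which tyrosines are replaced by serines, a change known to weaken that gathering.

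Depth was similar throughout, with 17900873 to 20270637 estimated counts per library in the 6 and 16261034 to 20270637 in all 18. Mitochondrial genes held 4.69 ± 0.119% of counts in EWS(YS37)-FLI1 and 4.49 ± 0.221% in EWS-FLI1mut libraries (SD, n = 3 each). In a principal component analysis of the 12 untreated libraries, the first component held 22.65% of the variance. EWS(YS37)-FLI1 libraries lay between 41.41 and 43.93 on it, while the EWS-FLI1mut, EWS-FLI1 and mCherry libraries lay between -22.3 and -4.16. Of the osteoblast genes, RUNX2 was at 42.4 to 48.9 CPM (library-size normalised read counts) in EWS(YS37)-FLI1 and 56.6 to 58.4 CPM in EWS-FLI1mut libraries, and COL1A1 and SPARC were abundant. COL1A2 stayed under 1 CPM in all 6 libraries, and SP7, IBSP and BGLAP did not pass the filter on low counts, so only some defining markers of the labelled cell type were present.

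Both altered fusions gave abundant RNA, and their EWSR1 reads fell on different reference transcripts. FLI1 (ENSG00000151702, chr11:128686535-128813267 of hg38, plus strand) measured 1001, 987 and 1069 CPM in EWS(YS37)-FLI1 libraries and 664, 634 and 626 CPM in EWS-FLI1mut libraries. The groups did not overlap (log2 fold change 0.67 ± 0.09, SE; adjusted p = 2.7e-06), although the call was lost with limma on log2(TPM + 0.1), where the log2 fold change was 0.54 (adjusted p = 0.161). FLI1 averaged 247 CPM in EWS-FLI1 and 0.547 CPM in mCherry cells, which carry no FLI1 construct. In TPM, a length-normalised level, FLI1 was 536 ± 10.2 in EWS(YS37)-FLI1 and 368 ± 14.6 in EWS-FLI1mut cells. EWSR1 (chr22:29268009-29300525, plus strand) was lower in EWS(YS37)-FLI1 libraries, at 947 ± 28.5 CPM against 1173 ± 45.6 CPM (log2 fold change -0.31 ± 0.05, adjusted p = 2.4e-05).

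The start of the EWSR1 coding sequence shows how dense the tyrosine codons are, and is printed because the reads were placed by this sequence. The first 90 codons of EWSR1-207, the full-length transcript, from GENCODE 29 (chr22:29268337-29278073 of hg38 with introns removed, plus strand), hold 14 tyrosine codons, shown in capitals.
EWSR1, codons 1 to 90: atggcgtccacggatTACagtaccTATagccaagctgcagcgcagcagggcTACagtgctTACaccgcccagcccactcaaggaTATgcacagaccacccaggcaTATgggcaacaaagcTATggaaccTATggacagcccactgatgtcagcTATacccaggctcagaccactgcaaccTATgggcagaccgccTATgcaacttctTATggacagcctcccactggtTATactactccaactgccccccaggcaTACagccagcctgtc
In the whole coding sequence of 655 codons there were 42 tyrosine codons, the 37th at codon 261. Up to there, 69 of 753 stretches of 31 bases (9.2%), the word length assumed here for read placement, held no tyrosine codon. EWSR1-219 contains none of these tyrosine-free stretches and EWSR1-214 contains 15.9% of them, while EWSR1-213 and EWSR1-211 contain them all and EWSR1-209 contains 87.0%.

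Some EWSR1 transcripts took reads in EWS-FLI1mut cells and others in EWS(YS37)-FLI1 cells. EWSR1-219 was at 3.21, 1.94 and 0.63 TPM in EWS(YS37)-FLI1 libraries and at 855, 749 and 603 TPM in EWS-FLI1mut libraries. EWSR1-214 averaged 5.75 ± 1.79 TPM in EWS(YS37)-FLI1 and 473 ± 32.3 TPM in EWS-FLI1mut cells. EWSR1-213 ran the other way, at 383, 428 and 347 TPM in EWS(YS37)-FLI1 libraries and at 0.70, 0.00 and 1.67 TPM in EWS-FLI1mut libraries. Full-length EWSR1-207 was at nearly the same level in both groups, 153 ± 2.30 TPM in EWS(YS37)-FLI1 and 160 ± 8.67 TPM in EWS-FLI1mut cells, and at 140 ± 10.8 TPM in mCherry cells. EWS-FLI1 cells resembled EWS-FLI1mut cells in this, with 588 ± 72.3 TPM of EWSR1-219 and 0 TPM of EWSR1-213 in each library. EWSR1-204, which contains all of the tyrosine-free stretches, was at 66.0 ± 4.69 TPM in EWS(YS37)-FLI1 and 643 ± 14.96 TPM in EWS-FLI1mut cells. EWSR1-211 was at 675 ± 52.0 TPM in EWS(YS37)-FLI1 and 175 ± 38.9 TPM in EWS-FLI1mut cells. The gene sums of EWSR1 thus compare reads placed on different transcripts. Of the 31-base words of EWSR1-211, 47.6% also occur in other genes. Below, this share is given for 1 transcript per gene, the one with the highest summed TPM over the 6 libraries, and not for the whole gene.

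**Figure D1:**
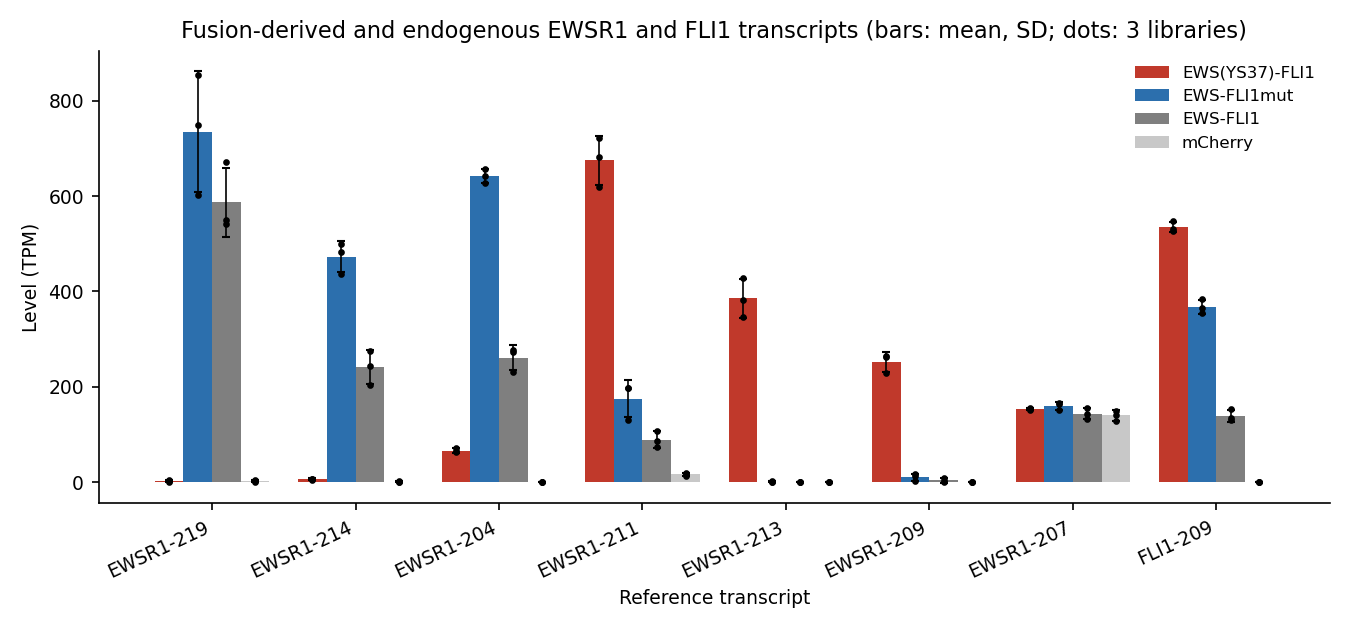
Level in TPM (linear axis) of 7 EWSR1 reference transcripts and of FLI1-209 in untreated EWS(YS37)-FLI1, EWS-FLI1mut, EWS-FLI1 and mCherry cells, with bars for the mean, error bars for the SD and dots for the 3 libraries. EWSR1-213 averaged 386 TPM in EWS(YS37)-FLI1 and 0.79 TPM in EWS-FLI1mut cells, EWSR1-219 averaged 1.93 TPM and 736 TPM, and EWSR1-207 was similar in all 4 groups.

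The transcriptomes of the 2 lines with altered fusions differed across many genes. Of 16786 genes tested with edgeR's quasi-likelihood test, 4565 (27.2%) passed an adjusted p of 0.05 (Benjamini-Hochberg over all genes), 2434 higher (14.5%) and 2131 lower (12.7%) in EWS(YS37)-FLI1. Most differences were small: the median absolute log2 fold change of the called genes was 0.40, and 63.0% were under 0.5. Past a log2 fold change of 1, 219 genes were higher (1.3%) and 376 lower (2.24%), and past 2 there were 65 and 80. The libraries of the groups did not overlap for 7008 genes (41.7%). The share of calls that were higher, 53.3%, was 37.8% with no scaling factors and 29.5% and 29.9% with limma on log2(TPM + 1) and log2(TPM + 0.1), where the median over all genes lay at -0.105 and -0.128 instead of -0.01. Calls numbered 2573 with transcript-length offsets and 2735 and 2584 with the limma fits.

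**Figure D2:**
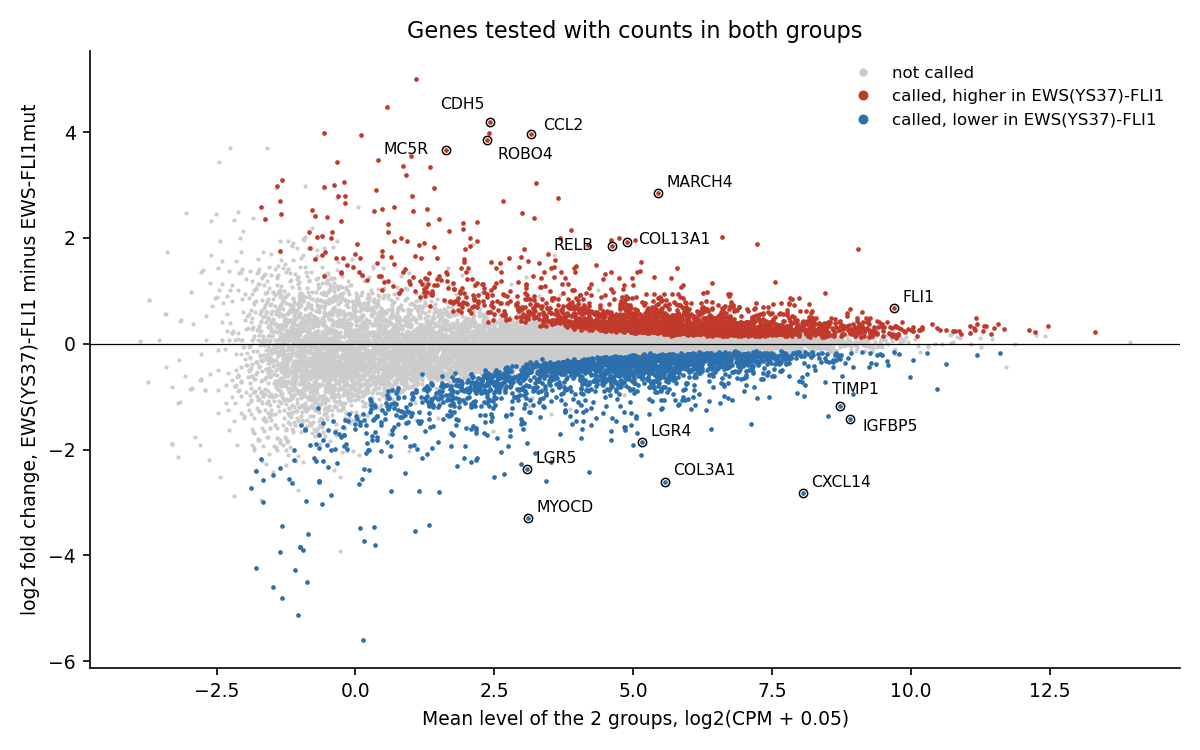
Log2 fold change of EWS(YS37)-FLI1 minus EWS-FLI1mut against the mean level of both groups, log2(CPM + 0.05), for the 16740 genes with counts in both groups; 46 genes, CSF2RB among them, were at 0 in all 3 libraries of a group and are left out. Red genes were called higher and blue genes lower in EWS(YS37)-FLI1; CDH5, CCL2 and ROBO4 stand near a log2 fold change of 4, and MYOCD and CXCL14 near -3.

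CSF2RB was read in every EWS(YS37)-FLI1 library and in no EWS-FLI1mut library. This gene encodes the beta subunit shared by the receptors for IL-3, IL-5 and GM-CSF and is normally a gene of blood cells (ENSG00000100368, chr22:36913628-36940449, plus strand). It measured 5.68, 7.00 and 8.04 CPM in EWS(YS37)-FLI1 libraries, 391 counts in all, and 0 in each EWS-FLI1mut library. Against a floor of 3 counts over the group it was at least 131-fold higher. It was also at 0 in mCherry libraries and averaged 0.172 ± 0.205 CPM in EWS-FLI1 cells. Its ligand-binding partners did not pass the test, although 2 alternatives called CSF2RA. These were transcript-length offsets (1.05, adjusted p = 0.0245) and limma on log2(TPM + 1) (0.78, adjusted p = 0.039). CSF2RA was at 5.46, 4.48 and 6.21 CPM in EWS(YS37)-FLI1 and 3.80, 4.64 and 4.86 CPM in EWS-FLI1mut libraries, and IL3RA was near 1 CPM in both. Of 9 tested cytokine receptor genes of the families of CSF2RB, 2 were higher, the other being IL6R (0.77 ± 0.18), and 0 were lower, 22.2% beside 27.2% of all genes. The IL6R call was lost with transcript-length offsets (adjusted p = 0.142) and with limma (0.212 and 0.208). IL7R, the interleukin-7 receptor chain, which stands outside that list and was picked after its values were seen, was at 139, 171 and 159 CPM in EWS(YS37)-FLI1 and 40.4, 39.3 and 36.2 CPM in EWS-FLI1mut libraries (2.02 ± 0.11, adjusted p = 4.1e-12).

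Some other genes normally read in blood cells were higher, without the defining leukocyte markers. ITGAX, the integrin chain CD11c, was at 14.1, 10.7 and 15.8 CPM in EWS(YS37)-FLI1 and 2.40, 3.04 and 1.89 CPM in EWS-FLI1mut libraries (2.47 ± 0.23, adjusted p = 2.2e-08). ARHGDIB, a gene abundant in leukocytes (2.70 ± 0.23), the scavenger receptor MARCO (2.28 ± 0.32) and the inflammatory caspase CASP1 (2.29 ± 0.29) rose as well. ARHGDIB, MARCO and CASP1 are not members of the blood marker list. Of the 31-base words of the transcript CASP1-214, 37.2% occur in other genes. PTPRC, the pan-leukocyte marker CD45, was at 0.227 to 1.00 CPM in EWS(YS37)-FLI1 and 0.722 to 1.28 CPM in EWS-FLI1mut libraries, and SPI1, CD14, CD3E and LYZ did not pass the filter. Of 6 blood markers tested, 2 were higher and 0 lower, 33.3% beside 27.2% of all genes. They were ITGAX and the integrin chain ITGAM (2.66 ± 0.67), near 1 CPM, whose call was lost with transcript-length offsets (adjusted p = 0.466) and with limma (0.324 and 0.248). Of the uncalled members, CD74 (-1.55 ± 0.66, adjusted p = 0.085) and PTPRC (-0.78 ± 0.48) had negative values. CD68 (0.45 ± 0.21) and ITGB2 (0.32 ± 0.16) had positive ones. CD74 averaged 0.25 CPM in EWS(YS37)-FLI1 and 0.74 CPM in EWS-FLI1mut cells. The 6 markers had a summed level of 39.6 to 47.4 CPM in EWS(YS37)-FLI1 and 24.0 to 27.2 CPM in EWS-FLI1mut libraries. In bulk RNA, more cells with RNA of these genes and more of that RNA per cell cannot be told apart.

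Several endothelial genes stood among the largest differences, while other members of the endothelial list were not called. ROBO4, the Roundabout receptor of endothelium (chr11:124883691-124898500, minus strand), measured 12.9, 8.69 and 7.18 CPM in EWS(YS37)-FLI1 libraries and 0.65, 0.773 and 0.563 CPM in EWS-FLI1mut libraries. All 3 EWS(YS37)-FLI1 values were above all EWS-FLI1mut values (3.84 ± 0.31, adjusted p = 2.6e-09), and ROBO4 was near 1 CPM in EWS-FLI1 and mCherry cells. CDH5, the cadherin of endothelial junctions, was at 9.89, 8.27 and 12 CPM in EWS(YS37)-FLI1 and 0.60, 0.619 and 0.409 CPM in EWS-FLI1mut libraries (4.19 ± 0.29, adjusted p = 3.0e-10). Unlike ROBO4, CDH5 was also read at 6.96 ± 0.499 CPM in EWS-FLI1 cells, against 0.998 ± 0.287 CPM in mCherry cells. ESM1, a secreted proteoglycan of endothelium, rose by 2.76 ± 0.28, and ENG, a TGF-beta co-receptor, by 1.03 ± 0.11.

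Of 17 tested endothelial genes, 6 were higher and 1 lower, 41.2% beside 27.2% of all genes. The median log2 fold change of the list was 0.29 beside -0.01 over all genes. The higher ones included the receptors TIE1 (2.32 ± 0.68) and FLT1 (1.30 ± 0.47), both under 2 CPM, whose calls were lost without EWS-FLI1mut replicate 3 (adjusted p = 0.0551 and 0.145); that of TIE1 was lost without replicate 1 too (0.0543), and that of FLT1 in 5 of the 6 fits that leave out a library. ERG, an ETS factor of endothelium, fell (-1.03 ± 0.19), at 4.55, 5.53 and 6.36 CPM in EWS(YS37)-FLI1 and 9.95, 10.6 and 13.2 CPM in EWS-FLI1mut libraries. PECAM1, KDR and VWF, which like CDH5 define endothelium, were not called and stayed at or under 3.00 CPM. Of the uncalled members, PECAM1 (0.70 ± 0.29) and ANGPT2 (0.84 ± 0.66) were higher in EWS(YS37)-FLI1 libraries without overlap. EGFL7, a secreted endothelial factor, was not called at 46.6 to 50.6 CPM in EWS(YS37)-FLI1 and 50.1 to 52.8 CPM in EWS-FLI1mut libraries. EMCN (-1.38 ± 0.68), CLDN5 (-0.64 ± 0.28) and MMRN2 (-0.50 ± 0.20) were not called although their libraries did not overlap, as for 41.7% of all genes. EMCN was called with both limma fits (adjusted p = 0.0354 and 0.0427) and MMRN2 in 5 alternatives, among them without EWS(YS37)-FLI1 replicate 1 (-0.70, adjusted p = 0.0226). Of the 31-base words of the transcript MMRN2-202, 51.4% occur in other genes. The summed list was at 140.1 to 157.1 CPM in EWS(YS37)-FLI1 and 100.2 to 109.9 CPM in EWS-FLI1mut libraries. Among the other Roundabout genes, ROBO1 was lower (-0.31 ± 0.06), a call lost with transcript-length offsets (adjusted p = 0.602) and with limma (0.294 and 0.297).

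The promoters of ROBO4 and ESM1 are shown because FLI1 and ERG bind GGAA and both genes rose together. The 250 bases before each start are from RefSeq (GRCh38.p14), and capitals mark GGAA or, on the other strand, TTCC.
ROBO4, chr11:124897866-124898115, minus strand: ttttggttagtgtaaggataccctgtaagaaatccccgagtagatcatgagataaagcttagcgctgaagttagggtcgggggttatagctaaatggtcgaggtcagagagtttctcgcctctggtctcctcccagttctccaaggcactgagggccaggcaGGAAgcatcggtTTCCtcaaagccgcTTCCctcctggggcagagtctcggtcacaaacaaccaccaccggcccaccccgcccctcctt
ESM1, chr5:54985594-54985843, minus strand: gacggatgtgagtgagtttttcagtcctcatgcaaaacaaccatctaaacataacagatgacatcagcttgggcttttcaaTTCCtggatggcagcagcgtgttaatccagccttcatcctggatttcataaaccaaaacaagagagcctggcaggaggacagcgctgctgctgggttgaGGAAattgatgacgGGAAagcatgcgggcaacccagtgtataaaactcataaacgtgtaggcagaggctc
Each holds 3 GGAA matches, the median over the 35116 promoter windows of that table, of which 92.74% hold at least 1 on either strand. Neither holds the repeat GGAAGGAA, found in 3.06% of windows, nor the ETS motif CCGGAAGT, found in 3.42%; both of these contain GGAA.

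NF-kB genes rose together. NF-kB is a family of dimeric transcription factors held in the cytoplasm by inhibitors, and it induces its own inhibitors and several of its subunits. Of 21 tested subunits, inhibitors and regulators, 18 were higher and 0 lower (85.7% called, beside 27.2% of all genes), with a median log2 fold change of 0.62. RELB, the subunit of the non-canonical pathway, measured 44.6, 32.8 and 38.1 CPM in EWS(YS37)-FLI1 libraries and 9.40, 10.4 and 12.4 CPM in EWS-FLI1mut libraries (1.84 ± 0.11, adjusted p = 2.7e-11). Its partner NFKB2 was at 82.1, 79.5 and 84.1 CPM in EWS(YS37)-FLI1 and 39.0, 36.1 and 38.6 CPM in EWS-FLI1mut libraries (1.11 ± 0.07, adjusted p = 4.1e-11). For both genes every EWS(YS37)-FLI1 library exceeded every EWS-FLI1mut library by a wide margin.

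Genes that restrain or relay the pathway rose as well. The adaptor TRAF1 (2.00 ± 0.25), the ubiquitin ligase BIRC3 (1.59 ± 0.17) and the deubiquitinase TNFAIP3 (1.42 ± 0.12) were higher, as were the inhibitors NFKBIE (1.13 ± 0.12) and NFKBIA (0.83 ± 0.08) and the kinase IKBKE (0.79 ± 0.12). NFKB1, the p105 precursor, rose by 0.62 ± 0.10. RELA, the main activating subunit, was not called, at 116, 112 and 120 CPM in EWS(YS37)-FLI1 and 114, 112 and 109 CPM in EWS-FLI1mut libraries (0.06 ± 0.06, adjusted p = 0.56). The kinase genes IKBKB (0.16 ± 0.07) and CHUK (-0.17 ± 0.08) were not called either, but CHUK was called without EWS-FLI1mut replicate 3 (-0.24, adjusted p = 0.0444) and with no scaling factors (-0.23, adjusted p = 0.0386). The call of REL (0.34 ± 0.08) was lost with limma on log2(TPM + 1), adjusted p = 0.269, and 52.2% of its 31-base words occur in other genes.

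**Figure D3:**
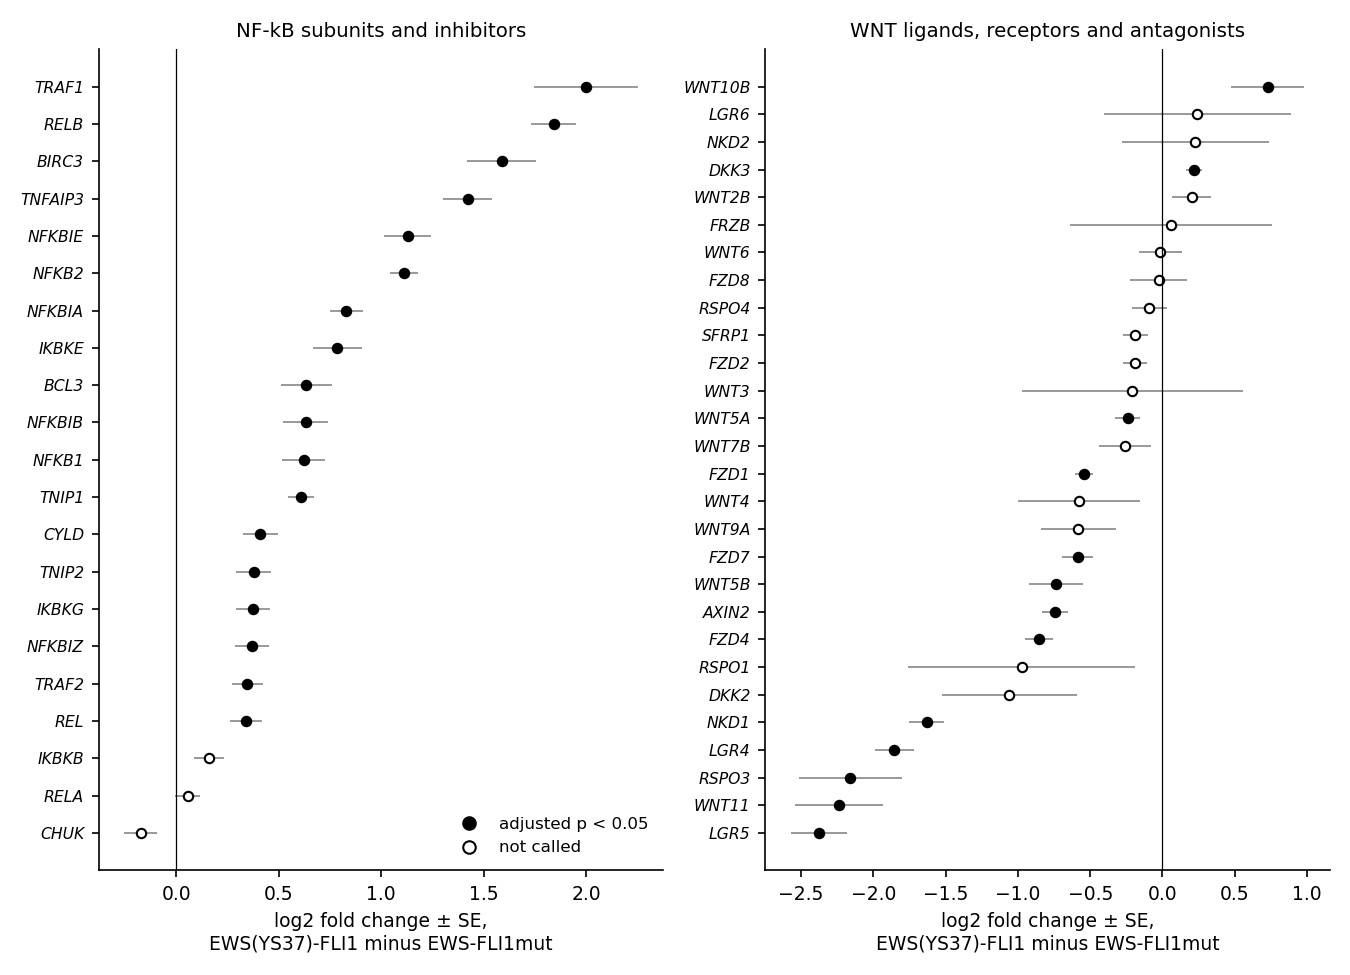
Log2 fold change of EWS(YS37)-FLI1 minus EWS-FLI1mut with its SE for each tested member of the NF-kB list (left) and the WNT list (right); filled points passed an adjusted p of 0.05. Of the 21 NF-kB genes 18 were called, all higher, while 11 of 28 WNT genes were called lower, with LGR5 at -2.38, and 2 higher.

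Secreted inflammatory genes split. CCL2, the monocyte-attracting chemokine, was at 15.3, 14.3 and 20.7 CPM in EWS(YS37)-FLI1 libraries and 0.80, 0.876 and 1.53 CPM in EWS-FLI1mut libraries (3.96 ± 0.26, adjusted p = 1.5e-10). IL6 was at 3.69, 3.27 and 2.90 CPM in EWS(YS37)-FLI1 and 0.60, 0.412 and 0.0512 CPM in EWS-FLI1mut libraries (3.18 ± 0.54, adjusted p = 9.6e-05), and CXCL8, a neutrophil attractant, rose by 1.43 ± 0.33. The groups did not overlap for any of the 3 genes, as for 41.7% of all genes. CXCL14, a chemokine of resting epithelia, was the most abundant member in EWS-FLI1mut cells and fell, at 75.2, 57.3 and 65.6 CPM in EWS(YS37)-FLI1 and 406, 488 and 510 CPM in EWS-FLI1mut libraries (-2.83 ± 0.12, adjusted p = 1.2e-13). Of 21 tested chemokines and cytokines, 6 were higher, IL32 (1.97 ± 0.10) and LIF (0.16 ± 0.06, lost in 12 alternatives) among them, and 4 lower, among them CX3CL1 (-0.78 ± 0.10) and CCL26 (-1.34 ± 0.31). The called share of this list was 47.6%, beside 27.2% of all genes. TNF and IL1B did not pass the filter on low counts.

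The promoters of IL6 and BIRC3 are shown because both genes rose and each carries the kB-type motif GGNNTTTCC, in capitals (RefSeq GRCh38.p14, 250 bases before the start); TTCC within the motif is also GGAA on the other strand, so the motif overlaps the ETS core.
IL6, chr7:22726950-22727199, plus strand: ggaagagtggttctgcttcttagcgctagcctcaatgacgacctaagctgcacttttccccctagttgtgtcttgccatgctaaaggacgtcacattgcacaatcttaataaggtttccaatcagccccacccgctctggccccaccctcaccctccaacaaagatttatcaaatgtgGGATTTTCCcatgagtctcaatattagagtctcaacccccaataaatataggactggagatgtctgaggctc
BIRC3, chr11:102317234-102317483, plus strand: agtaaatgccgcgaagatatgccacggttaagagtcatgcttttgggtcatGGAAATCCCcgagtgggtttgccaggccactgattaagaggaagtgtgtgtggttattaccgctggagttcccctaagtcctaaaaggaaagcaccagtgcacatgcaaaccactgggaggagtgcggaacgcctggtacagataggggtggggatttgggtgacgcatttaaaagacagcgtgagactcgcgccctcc
The match lies on the printed strand in IL6 and on the other strand in BIRC3. On either strand, 5.48% of all 35116 promoter windows hold this motif. A match is a run of letters and not a measured binding site. Because these promoters were picked for carrying the motif, the 5.48% is no comparison for them. Whether genes that rose hold the motif more often than other genes was not tested.

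Interferon-stimulated genes did not move as a group: 8 of 30 were higher and 5 lower (43.3% beside 27.2% of all genes, median 0.09). The antiviral genes IFIT3 (2.16 ± 0.38) and IFIH1 (0.76 ± 0.19; adjusted p = 0.0536 and 0.0759 with limma) and the factor IRF1 (0.72 ± 0.14) rose, while IFI44 fell (-0.68 ± 0.15). IFIT3 was at 6.20, 6.42 and 5.91 CPM in EWS(YS37)-FLI1 and 0.95, 1.08 and 2.10 CPM in EWS-FLI1mut libraries. Of the 31-base words of the transcript IRF1-203, 42.9% occur in other genes.

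More WNT genes were lower than higher. WNT ligands act through Frizzled receptors, and R-spondins amplify the signal through the LGR receptors. Of 28 tested ligands, receptors and antagonists, 2 were higher and 11 lower, 46.4% in all beside 27.2% of all genes, and the median log2 fold change was -0.40. LGR5, an R-spondin receptor of stem cells, was at 2.96, 3.37 and 1.88 CPM in EWS(YS37)-FLI1 libraries and 13.2, 15.2 and 14.2 CPM in EWS-FLI1mut libraries (-2.38 ± 0.19, adjusted p = 3.5e-09). LGR4, its relative, was at 15.1, 17.7 and 13.5 CPM in EWS(YS37)-FLI1 and 54.4, 57.8 and 55.2 CPM in EWS-FLI1mut libraries (-1.86 ± 0.13, adjusted p = 4.9e-10). Neither receptor's groups overlapped, as for 41.7% of all genes.

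Their ligand RSPO3 was lower too, at 1.14, 2.21 and 0.814 CPM in EWS(YS37)-FLI1 and 5.65, 6.86 and 6.19 CPM in EWS-FLI1mut libraries (-2.16 ± 0.36), a call lost with transcript-length offsets (adjusted p = 0.0664). WNT11 (-2.24 ± 0.30) and the receptors FZD4 (-0.85 ± 0.10), FZD7 (-0.59 ± 0.11) and FZD1 (-0.54 ± 0.06) fell. AXIN2, a feedback inhibitor and general WNT target, fell by 0.74 on the log2 scale (SE 0.09), and NKD1, another feedback inhibitor, by 1.63 (SE 0.12); 30.7% of the 31-base words of AXIN2 occur in other genes. The higher members were WNT10B (0.73 ± 0.25), whose call was lost without EWS(YS37)-FLI1 replicate 1 or 2 or EWS-FLI1mut replicate 2 or 3 (adjusted p = 0.0812 to 0.129), and the secreted DKK3 (0.22 ± 0.06), not called by limma (adjusted p = 0.297 and 0.305).

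**Figure D4:**
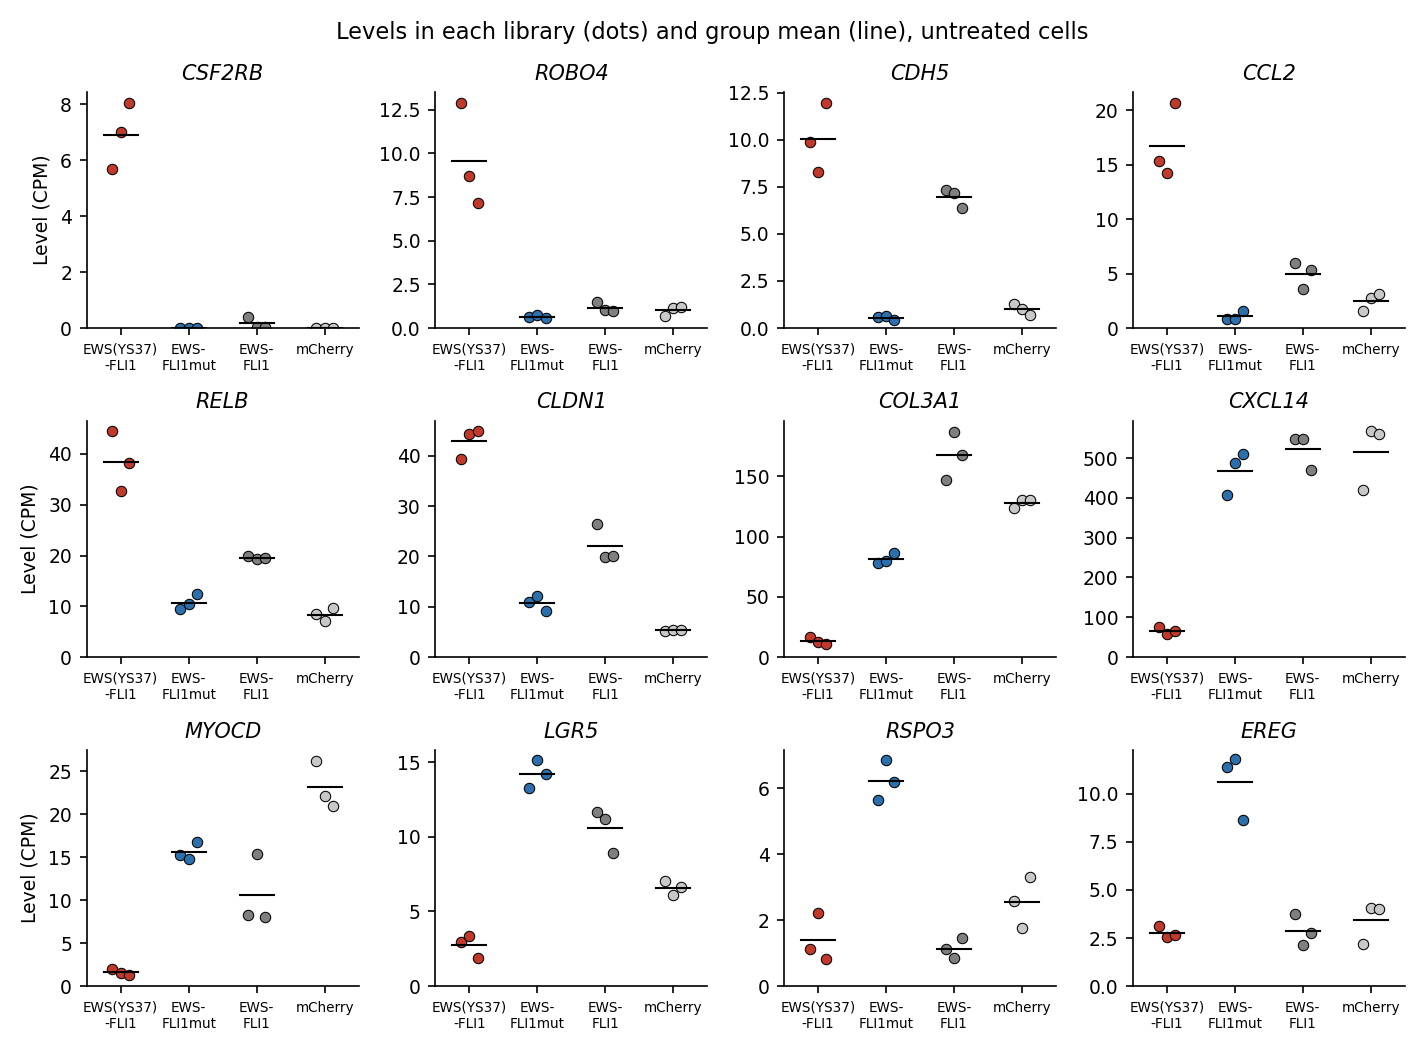
Level in CPM (linear axes from 0, a scale for each gene) of 12 genes in each untreated library (dots) with the group mean (line), for EWS(YS37)-FLI1, EWS-FLI1mut, EWS-FLI1 and mCherry cells. CSF2RB, ROBO4 and CCL2 were highest in EWS(YS37)-FLI1 libraries, COL3A1, CXCL14 and MYOCD were lowest there, and LGR5, RSPO3 and EREG were highest in EWS-FLI1mut libraries.

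Collagen genes moved in both directions, with 3 fibrillar chains lower and 2 higher. COL3A1, the type III collagen chain (chr2:188974320-189012746, plus strand), measured 16.6, 12.3 and 11.2 CPM in EWS(YS37)-FLI1 libraries and 78.0, 79.7 and 86.2 CPM in EWS-FLI1mut libraries (-2.61 ± 0.12, adjusted p = 4.7e-13). Both groups were below the 128 ± 3.94 CPM of mCherry cells, while EWS-FLI1 cells had 167 ± 20.2 CPM. COL11A1 was at 50.1, 41.0 and 51.0 CPM in EWS(YS37)-FLI1 and 107, 111 and 119 CPM in EWS-FLI1mut libraries (-1.25 ± 0.08). The abundant COL1A1 was at 1113, 903 and 1016 CPM in EWS(YS37)-FLI1 and 1978, 1749 and 1734 CPM in EWS-FLI1mut libraries (-0.85 ± 0.09). These 3 fibrillar chains were lower in every EWS(YS37)-FLI1 library than in any EWS-FLI1mut library, while 41.7% of all genes had no overlap in 1 direction or the other. The fibrillar chains COL5A3 (1.11 ± 0.20) and COL27A1 (0.58 ± 0.08; adjusted p = 0.0634 with limma on log2(TPM + 1)) were higher, and COL5A1 (-0.14 ± 0.06) and COL5A2 (0.11 ± 0.07) were not called, although 6 alternatives called COL5A1 lower, with limma on log2(TPM + 1) at -0.34 (adjusted p = 0.00418). Of 24 tested chains of all kinds 7 were lower and 4 higher, 45.8% beside 27.2% of all genes. The membrane collagen COL13A1 was higher, at 49.6, 42.5 and 49.0 CPM in EWS(YS37)-FLI1 and 13.9, 12.5 and 10.8 CPM in EWS-FLI1mut libraries (1.92 ± 0.12).

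Of 17 tested integrin genes, 7 were lower and 2 higher (52.9% beside 27.2% of all genes), or 3 lower and 1 higher with transcript-length offsets. Those offsets called 2573 of all 16786 genes, 1107 lower and 1466 higher. ITGB8, which activates latent TGF-beta, fell (-1.07 ± 0.08), as did ITGB4, the epithelial laminin receptor chain (-1.05 ± 0.10), and ITGB3 (-1.54 ± 0.14), of whose 31-base words 56.4% occur in other genes. ITGA11, a collagen receptor chain, fell by 1.78 on the log2 scale (SE 0.21). That call was lost with transcript-length offsets (adjusted p = 0.313) and with limma (0.25 and 0.273). ITGA5, the fibronectin receptor chain, was higher (0.53 ± 0.07). The matrix protease MMP2 (-0.72 ± 0.09) and the inhibitor TIMP1 (-1.18 ± 0.11) fell, and so did IGFBP5, a secreted binding protein of insulin-like growth factors, at 318, 180 and 281 CPM in EWS(YS37)-FLI1 and 680, 714 and 688 CPM in EWS-FLI1mut libraries (-1.42 ± 0.13). EFEMP1, the matrix glycoprotein fibulin-3, which was picked after its values were seen, was abundant and rose, at 767 to 863 CPM in EWS(YS37)-FLI1 and 234 to 239 CPM in EWS-FLI1mut libraries (1.79 ± 0.07, adjusted p = 1.1e-14).

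MYOCD fell while some smooth muscle genes rose and others were not called. MYOCD, the myocardin coactivator of serum response factor, was at 1.99, 1.47 and 1.32 CPM in EWS(YS37)-FLI1 libraries and 15.2, 14.8 and 16.8 CPM in EWS-FLI1mut libraries (-3.29 ± 0.32, adjusted p = 5.4e-08). The contractile genes CNN1 (1.32 ± 0.11) and TAGLN (0.95 ± 0.10) were higher, and SRF itself rose by 0.35 ± 0.06, a call lost with limma on log2(TPM + 0.1), where it was 0.22 (adjusted p = 0.0531). CNN1 was at 28.2, 33.5 and 34.0 CPM in EWS(YS37)-FLI1 and 14.3, 12.2 and 11.9 CPM in EWS-FLI1mut libraries. Of 21 tested genes 8 were higher and 2 lower, 47.6% in all beside 27.2% of all genes. The contractile genes ACTA2 (-0.12 ± 0.24), MYLK (0.03 ± 0.07) and TPM1 (-0.01 ± 0.05) were not called, though limma on log2(TPM + 1) called TPM1 lower (-0.18, adjusted p = 0.0158). Of the 31-base words of the transcript ACTA2-202, 41.5% occur in other genes. Of 12 YAP/TEAD genes, which respond to cell shape and tension, 8 were higher and 1 lower, 75.0% beside 27.2% of all genes. CYR61 was at 447 to 474 CPM in EWS(YS37)-FLI1 and 228 to 248 CPM in EWS-FLI1mut libraries (0.96 ± 0.06). With limma, 3 YAP/TEAD genes were higher and 2 lower. Of all 16786 genes, limma called 2735 on log2(TPM + 1), 29.5% of them higher, and 2584 on log2(TPM + 0.1), 29.9% of them higher. CTGF, a further target, was not called (-0.10 ± 0.06; -0.22, adjusted p = 0.046 with limma on log2(TPM + 1)), at 356, 333 and 337 CPM in EWS(YS37)-FLI1 and 364, 364 and 368 CPM in EWS-FLI1mut libraries.

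Amino acid response genes rose modestly and broadly. ATF4 is the factor that raises amino acid transporters and synthesis enzymes under stress. Of 28 genes of this response, 18 were higher and 1 lower (67.9% beside 27.2% of all genes), with a median log2 fold change of 0.49. ATF4 itself was at 677, 736 and 739 CPM in EWS(YS37)-FLI1 and 505, 517 and 520 CPM in EWS-FLI1mut libraries (0.48 ± 0.05); 53.8% of its 31-base words occur in other genes. The serine and folate enzymes SHMT2 (0.75 ± 0.05), MTHFD2 (0.61 ± 0.07) and PSAT1 (0.50 ± 0.07), the phosphatase subunit PPP1R15A (0.76 ± 0.07) and the glutathione-degrading CHAC1 (1.24 ± 0.18) rose. SLC7A11, the cystine transporter, fell (-0.34 ± 0.08), and asparagine synthetase ASNS was not called (-0.09 ± 0.08). Of the 31-base words of ASNS-202, its transcript of highest level, 99.0% occur in other genes, so the level of ASNS is uncertain. ER chaperones and unfolded protein response genes had 8 of 18 higher and 1 lower, HSPA5 among the higher (0.41 ± 0.05) and PDIA4 the lower (-0.46 ± 0.14), a call lost without EWS-FLI1mut replicate 2 (adjusted p = 0.0841), without EWS(YS37)-FLI1 replicate 1 (0.0766) and with transcript-length offsets (0.0725).

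Proliferation genes showed no common direction. Of 36 E2F and DNA replication genes 2 were higher and 4 lower, 16.7% in all, below the 27.2% of all genes, and of 33 mitosis genes 8 were higher and 4 lower (36.4%). The list of D cyclins, CDK4, CDK6, CDK inhibitors and RB family genes had 5 of 14 higher and 5 lower (71.4% called), with CCND2 higher (0.40 ± 0.05) and RB1 lower (-0.44 ± 0.07). Replication-dependent histones, whose mRNAs lack a poly(A) tail, had 8 of 12 lower and 0 higher (66.7% called, median -0.47), and their summed level was 306.6 to 330.6 CPM in EWS(YS37)-FLI1 and 428.5 to 467.2 CPM in EWS-FLI1mut libraries. Mitochondrially encoded genes had 5 of 13 higher and 0 lower (38.5% called). Whether these 2 quality-related shares played a part in other results was not tested.

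Reported targets of EWS-FLI1 did not share a direction. Of 26 tested activated targets, 6 were higher and 5 lower (42.3% called, median 0.05). SOX2, a stem cell factor, was lower, at 8.70, 7.21 and 9.77 CPM in EWS(YS37)-FLI1 and 16.5, 18.8 and 21.2 CPM in EWS-FLI1mut libraries (-1.14 ± 0.16). NR0B1 and NKX2-2, hallmark targets in Ewing sarcoma, were not called (0.51 ± 0.51 and -0.10 ± 0.15). Of 19 tested repressed targets, 16 were called, 9 higher and 7 lower (84.2%, beside 27.2% of all genes). LOX (0.27 ± 0.08) stands in both lists and counts as higher in each. The activated list summed to 1448.1 CPM in untreated EWS-FLI1 and 1622.7 CPM in mCherry cells. For the repressed list the sums were 6887.2 and 4805.3 CPM, so neither sum followed the reported direction in U2OS. Abundant members weigh most in such sums. In EWS-FLI1mut cells COL1A1 held 1820 CPM of the 5571.6 CPM of the repressed list. Whether single members differed between EWS-FLI1 and mCherry cells was not tested. COL3A1, IGFBP5 and TIMP1 were on the lower side, with CYR61, TAGLN, ANXA1 (0.87 ± 0.07) and the small heat shock protein CRYAB (0.94 ± 0.08) on the higher side.

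**Figure D5:**
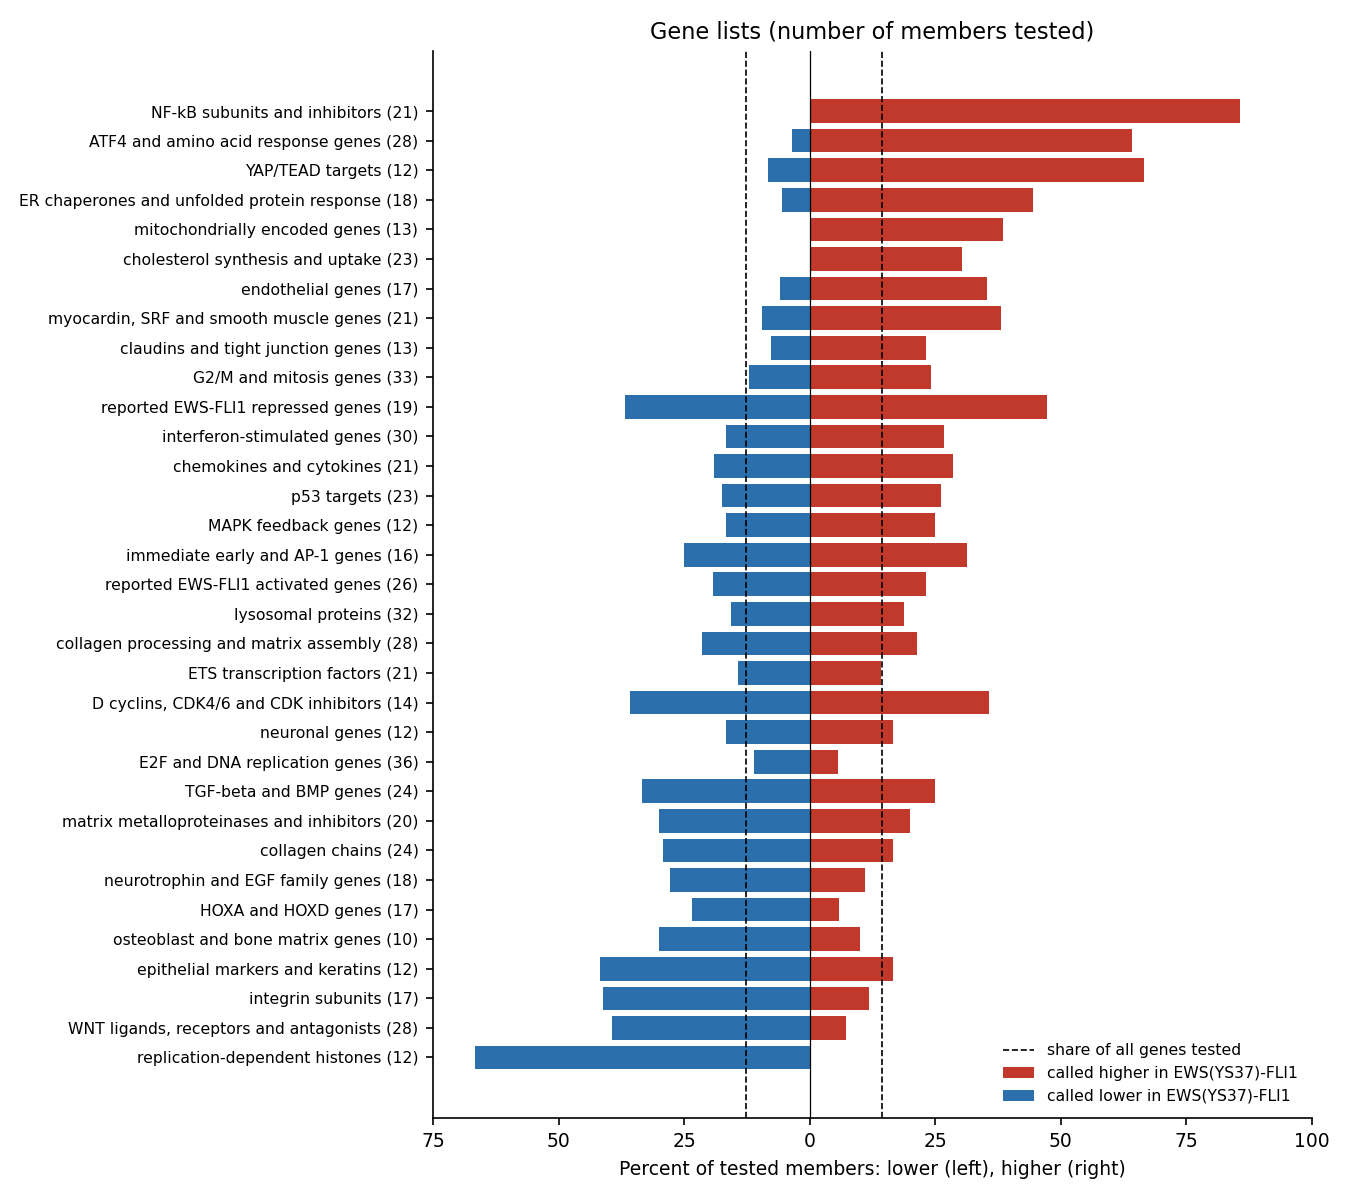
Percent of the tested members of each gene list of at least 10 tested genes that were called higher (right, red) and lower (left, blue) in EWS(YS37)-FLI1 than in EWS-FLI1mut cells, with the number tested in brackets; dashed lines mark the 14.5% and 12.7% of all genes. The NF-kB list had 18 of 21 higher, the ATF4 list 18 of 28, histones 8 of 12 lower and WNT genes 11 of 28 lower.

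Against fusion-free cells the 2 constructs differed in extent and, for some genes, in side. EWS(YS37)-FLI1 minus mCherry gave 3645 calls (21.7%; 11.5% higher, 10.2% lower) and EWS-FLI1mut minus mCherry gave 1200 (7.15%; 3.53% higher, 3.62% lower); both contrasts share the 3 mCherry libraries and are given side by side only. The NF-kB gene RELB differed from mCherry by 2.19 in EWS(YS37)-FLI1 (adjusted p = 2.6e-12) and by 0.35 in EWS-FLI1mut cells (adjusted p = 0.0947, or 0.0366 with no filter on low counts). The NF-kB list summed to 942.5 CPM in EWS(YS37)-FLI1, 651.6 CPM in EWS-FLI1mut, 733.9 CPM in EWS-FLI1 and 625.6 CPM in mCherry cells. COL3A1 was below mCherry in both, by log2 fold changes of -3.26 and -0.66. CXCL14 (-2.97 and -0.14) and MYOCD (-3.86 and -0.57) were called below mCherry in EWS(YS37)-FLI1 and not in EWS-FLI1mut cells, though MYOCD was called there with no filter on low counts (adjusted p = 0.0157). The WNT receptor LGR5 was below mCherry in EWS(YS37)-FLI1 (-1.27) and above it in EWS-FLI1mut cells (1.11), both called, and LGR4 likewise (-1.15 and 0.70).

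The same split held for KLHL4 (-1.22 and 1.20), SLITRK6, a synaptic adhesion protein (-1.57 and 1.03), the ubiquitin ligase HERC3 (-1.03 and 1.07) and the developmental factor SOX6 (-0.89 and 0.68), each called on both sides, where transcript-length offsets ended the EWS-FLI1mut call of SLITRK6 (adjusted p = 0.298) and SOX6 (0.211) and both calls of HERC3 (0.0959 in EWS(YS37)-FLI1 and 0.0607 in EWS-FLI1mut cells). In reverse, CCL2 was above mCherry in EWS(YS37)-FLI1 (2.76) and below it in EWS-FLI1mut cells (-1.20), as were IL7R (1.40 and -0.61) and CHAC1 (0.59 and -0.65). The EWS-FLI1mut call was lost without EWS-FLI1mut replicate 1 or 2 for CCL2 (adjusted p = 0.0969 and 0.0865) and without any of the 3 EWS-FLI1mut libraries for CHAC1 (0.0509 to 0.155), whose EWS(YS37)-FLI1 call was lost without EWS(YS37)-FLI1 replicate 2 (0.0651). With limma on log2(TPM + 1) the EWS-FLI1mut call of IL7R was lost (adjusted p = 0.112). A few genes set EWS-FLI1mut cells apart instead. EREG, the EGF receptor ligand epiregulin, was at 3.13, 2.53 and 2.65 CPM in EWS(YS37)-FLI1 and 11.4, 11.8 and 8.65 CPM in EWS-FLI1mut libraries, and differed from mCherry by -0.31 (adjusted p = 0.443) and 1.63 (adjusted p = 1.8e-04). CHI3L1, a secreted chitinase-like protein, was at 3.52, 1.69 and 5.65 CPM in EWS(YS37)-FLI1 and 13.1, 17.4 and 15 CPM in EWS-FLI1mut libraries, with 0.55 (adjusted p = 0.365) and 2.61 (adjusted p = 1.1e-04) against mCherry.

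Other large differences lay outside the lists. MARCH4, a membrane-bound ubiquitin ligase, was at 71.7, 76.7 and 82.8 CPM in EWS(YS37)-FLI1 libraries and 12, 12 and 8.03 CPM in EWS-FLI1mut libraries (2.85 ± 0.16, adjusted p = 8.9e-12). The melanocortin receptor MC5R (3.67 ± 0.42), the potassium channel tetramerisation protein KCTD16 (3.04 ± 0.27) and the proton-sensing receptor GPR4 (2.38 ± 0.23) rose. They were named by a rule that required groups without overlap. ANO2, a calcium-activated chloride channel, rose by 3.99 ± 0.73 with a wide spread, at 18.2, 2.69 and 8.70 CPM in EWS(YS37)-FLI1 and 0.30, 0.567 and 0.972 CPM in EWS-FLI1mut libraries. CLDN1, a tight junction protein, was at 39.3, 44.3 and 44.9 CPM in EWS(YS37)-FLI1 and 11, 12.2 and 9.11 CPM in EWS-FLI1mut libraries (1.99 ± 0.11). LAMP3, a lysosomal membrane protein of dendritic cells, rose by 2.15 ± 0.18.

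On the lower side stood the signalling antagonist SOSTDC1 (-2.47 ± 0.33), the serotonin receptor HTR2A (-2.20 ± 0.21), the urea transporter SLC14A1 (-2.16 ± 0.35), the dynein chain DYNC1I1 (-2.27 ± 0.20) and the neurotrophin receptor NTRK3 (-2.04 ± 0.19). HTR2A was at 1.53, 1.53 and 1.73 CPM in EWS(YS37)-FLI1 and 7.75, 7.89 and 6.45 CPM in EWS-FLI1mut libraries. The keratin KRT14 (-2.51 ± 0.22) is uncertain, as 40.0% of the 31-base words of KRT14-203, its transcript of highest level, occur in other genes. The guidance cue SEMA3C, picked after its values were seen, was at 73.8, 75.7 and 67.3 CPM in EWS(YS37)-FLI1 and 203, 209 and 207 CPM in EWS-FLI1mut libraries (-1.51 ± 0.07, adjusted p = 1.8e-13).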

How the data were processed

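PolyA RNA-seq of U2OS cells was analysed from deposited tables of transcripts. The estimated counts in them are not normalized, per the file headers, which also name TPM and an effective transcript length; the submitters' processing notes name kallisto 0.46, CASAVA and hg38. The transcript set, strandedness and, of the 2 library kits in the labels, which served which library are not given in the sources used here. The estimated counts deposited by the authors were summed per gene through GENCODE 29 transcript identifiers (2.59% to 2.74% of counts had no match and were left out) and rounded. With strand not stated, reads of a gene and an antisense partner cannot be told apart.

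edgeR 4.0.16 (R 4.3.3) with TMM factors, filterByExpr and 1 quasi-likelihood fit of all 18 libraries gave 16786 genes, 12 residual degrees of freedom and a biological coefficient of variation of 8.77%. Benjamini-Hochberg adjustment ran over the whole table. Levels are TMM-scaled CPM, and each SE divides the size of the log2 fold change by the root of its F statistic. The fit was tested on simulated data. Same-group libraries differed by more than counting noise, so none was counted as a repeat. P-values measure the spread between libraries within groups, taken over all 18 libraries of the fit, with 1 line per construct.

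Alternatives were RLE, upper-quartile and no scaling, 2 other filters, 6 or 12 libraries, transcript-length offsets, a replicate block, leaving out each library, limma 3.58.1 on log2(TPM + 1) and log2(TPM + 0.1), and DESeq2 1.42.0. Named genes were FLI1, EWSR1, CSF2RB, ROBO4, COL3A1, the 15 largest differences in each direction among called protein-coding genes without overlap and with at least 5 CPM, and up to 3 called members per list and direction, or its 2 members of highest level if the test called none. Chosen after their values were seen were ACTA2, ANXA1, ASNS, ATF4, AXIN2, CHI3L1, CHUK, CLDN5, COL1A2, COL5A1, COL5A2, CSF2RA, CTGF, CXCL8, EFEMP1, EGFL7, EMCN, ENG, FLT1, FZD1, FZD4, FZD7, HERC3, IFIH1, IKBKB, IKBKE, IL32, IL3RA, IL7R, IRF1, ITGB4, ITGB8, KDR, LGR4, LIF, MMRN2, MTHFD2, MYLK, NFKB1, NFKB2, NFKBIA, NFKBIE, NKD1, NKX2-2, NR0B1, PECAM1, PSAT1, PTPRC, REL, RELA, SEMA3C, SHMT2, SOX6, SPARC, SRF, TIE1, TNFAIP3, TPM1 and VWF. The members, the lists and these rules were chosen with earlier results of these data known. Promoter letters were searched in 250 bases before each start; 12187 of 16786 genes tested had a window, too few for a comparison of gene sets.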

Additional observations from a re-analysis of the deposited data

How the results depend on the processing

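There were 18 alternatives and 213 called genes that were named by rule or after their values were seen. Of these genes, 144 kept call and direction in every alternative that tested them. The filter on a mean of at least 1 CPM left 205 of the 213 to test. Calls numbered 4565 in the reported fit. Transcript-length offsets gave 2573 (1466 higher, 1107 lower). With limma on log2(TPM + 1) there were 2735, 807 of them higher, 94 past a log2 fold change of 1 and 215 past -1; with log2(TPM + 0.1) there were 2584, 772 higher and 143 past 1. Leaving out 1 library gave 3564 to 3960 calls, 1913 to 2155 higher and 1651 to 1805 lower, with 202 to 219 past 1 and 317 to 377 past -1. No other alternative moved a count of all calls by more than 1.5 times. Signs turned with limma, on log2(TPM + 1) and log2(TPM + 0.1) in that order, for PAPPA (-0.003 and -0.002 instead of 0.40), NPC1 (-0.031 and -0.032 instead of 0.34) and LIF (-0.025 and -0.026 instead of 0.16), and with transcript-length offsets for TJP3 (0.03 instead of -0.74). Against mCherry, EWS(YS37)-FLI1 signs turned with limma, in the same order, for LOXL3 (-0.025 and -0.024; -0.008 with transcript-length offsets; 0.33 reported), NPC1 (-0.020 and -0.021; 0.32 reported) and IKBKB (-0.021 and -0.022; 0.24 reported). In none of these was the turned value called, and the cause was not tested. Same-numbered libraries deviated together by correlations of -0.012, 0.033 and 0.051, so the numbers were not taken as pairs; the replicate block gave 4576 calls. Limits: each group had 3 libraries of 1 line. P-values measure the spread between libraries within groups, over all libraries of the fit, and not the spread between lines. Genes near 1 CPM rest on few counts per library.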
